A study of Mus musculus with 2 samples.

Results

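The 40 genes described here act in the uptake, activation, storage, oxidation and synthesis of fatty acids, and were taken by symbol from the 32285 genes of the count tables. They comprise 7 binding and uptake genes, 4 activation genes, 8 storage and lipolysis genes, 7 oxidation genes, 11 synthesis, elongation and desaturation genes and 3 nuclear receptors. The cells came from the small intestinal lamina propria, the connective tissue beneath the gut epithelium, of female littermates aged 10 to 12 weeks, fasted for 16 h and given olive oil by gavage 2 h before collection. Live immune cells (CD45+) without the surface markers EPCAM, Ter119 and CD31 were sorted, 100000 per mouse, and each genotype's 3 mice went as a pool into 1 droplet library with 3′ gene expression chemistry. The control pool, F/F, carried floxed Aster-A alleles (Aster-A F/F). The other pool, CD4-Cre, came from littermates that carried the same floxed alleles together with the CD4-Cre transgene (CD4-Cre; Aster-A F/F), which drives recombination in T cells. Aster-A is a sterol transfer protein encoded by Gramd1a. Both pools received oil, so no value here is a change with the meal, and with 1 library per genotype no difference between genotypes can be tested.

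Long-chain fatty acids enter cells with the help of CD36 and transport proteins, are bound by fatty acid binding proteins (FABPs) and are joined to coenzyme A before further use. They are then esterified into triglyceride and kept in lipid droplets coated by perilipins, or are carried as carnitine esters into mitochondria for β-oxidation. Citrate-derived acetyl units feed the opposite route, in which fatty acids are made, elongated and desaturated, and PPAR nuclear receptors, which bind fatty acids, control many genes of these routes.

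After filtering, 12594 cells of F/F and 12526 of CD4-Cre remained, with medians of 15319.5 and 14031 unique molecular identifiers (UMIs, each a counted transcript) per cell. The 2 libraries shared 47 cell barcodes. Clusters were named from marker genes, and 7 named classes had at least 100 cells in both libraries: plasma-like (5007 and 4622 cells in F/F and CD4-Cre), cycling plasma-like (1488 and 1177), CD4 T-like (783 and 1162), macrophage-like (754 and 545), type 1 conventional dendritic cells or cDC1-like (340 and 484), CD8 T-like (137 and 371) and ILC3-like, group 3 innate lymphoid cells (104 and 141). Free RNA from other tissue differed between the libraries: in CD4 T-like cells the summed pancreatic marker genes stood at 825 and 45.7 CPM (a gene's UMIs scaled to a common total per class and library) and the gastric ones at 31.2 and 417 CPM in F/F and CD4-Cre. In macrophage-like cells the pancreatic sums were 701 and 6.39 CPM and the gastric ones 15.9 and 157. In cDC1-like cells they were 598 and 1.67, and 10.9 and 99.5. A cluster led by pancreatic genes held 610 F/F cells and 3 CD4-Cre cells and was left unnamed. It had a median of 47.9% immunoglobulin UMIs but lies outside the plasma-like class. The effect of this on the plasma-like comparison between libraries was not tested. The CD4 T-like level of Gramd1a was 51.4 CPM in the control pool and 40 CPM in the other, a ratio of 0.778 (0.625 to 0.97), and since the labels do not place the floxed part of the gene, a 3′ tag does not check the deletion.

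Every member had at least 1 UMI in each library, and 36 of the 40 had at least 100 UMIs over the 7 classes. Values below are CPM of all UMIs of a class in 1 library, followed in parentheses by the exact 95% Poisson interval. All intervals given cover counting error alone. They do not cover the spread between mice or the uneven sharing of a gene's UMIs among the cells of a class. Of these 36 members, 8 were highest in macrophage-like cells in both libraries (22.2%, against 11.6% of the 13389 genes with as many UMIs), 6 in cDC1-like cells (16.7% against 9.34%), 4 in CD4 T-like cells (11.1% against 10.4%), 2 in ILC3-like cells (5.56% against 8.31%) and 2 in cycling plasma-like cells (5.56% against 11.4%). None was highest in plasma-like or CD8 T-like cells in both libraries, and the other 14 were highest in different classes in the 2 libraries. The macrophage-like group held Plin2, Lipa, Dgat2, Acsl1, Cpt1a, Fads1, Pparg and Ppard, and the cDC1-like group Cd36, Pnpla2, Lipe, Acadl, Elovl1 and Elovl5. Immunoglobulin transcripts made up 55.2% and 56.8% of plasma-like UMIs in F/F and CD4-Cre, against 17.4% and 15.9% in macrophage-like cells, which lowers the CPM of every other gene in plasma cells. Summed over the 40 members, macrophage-like cells had 1200 and 1230 CPM and plasma-like cells 270 and 280 CPM; with immunoglobulin, pancreatic and gastric genes left out of the totals these sums were 1460 and 1460 against 603 and 647.

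**Figure D1:**
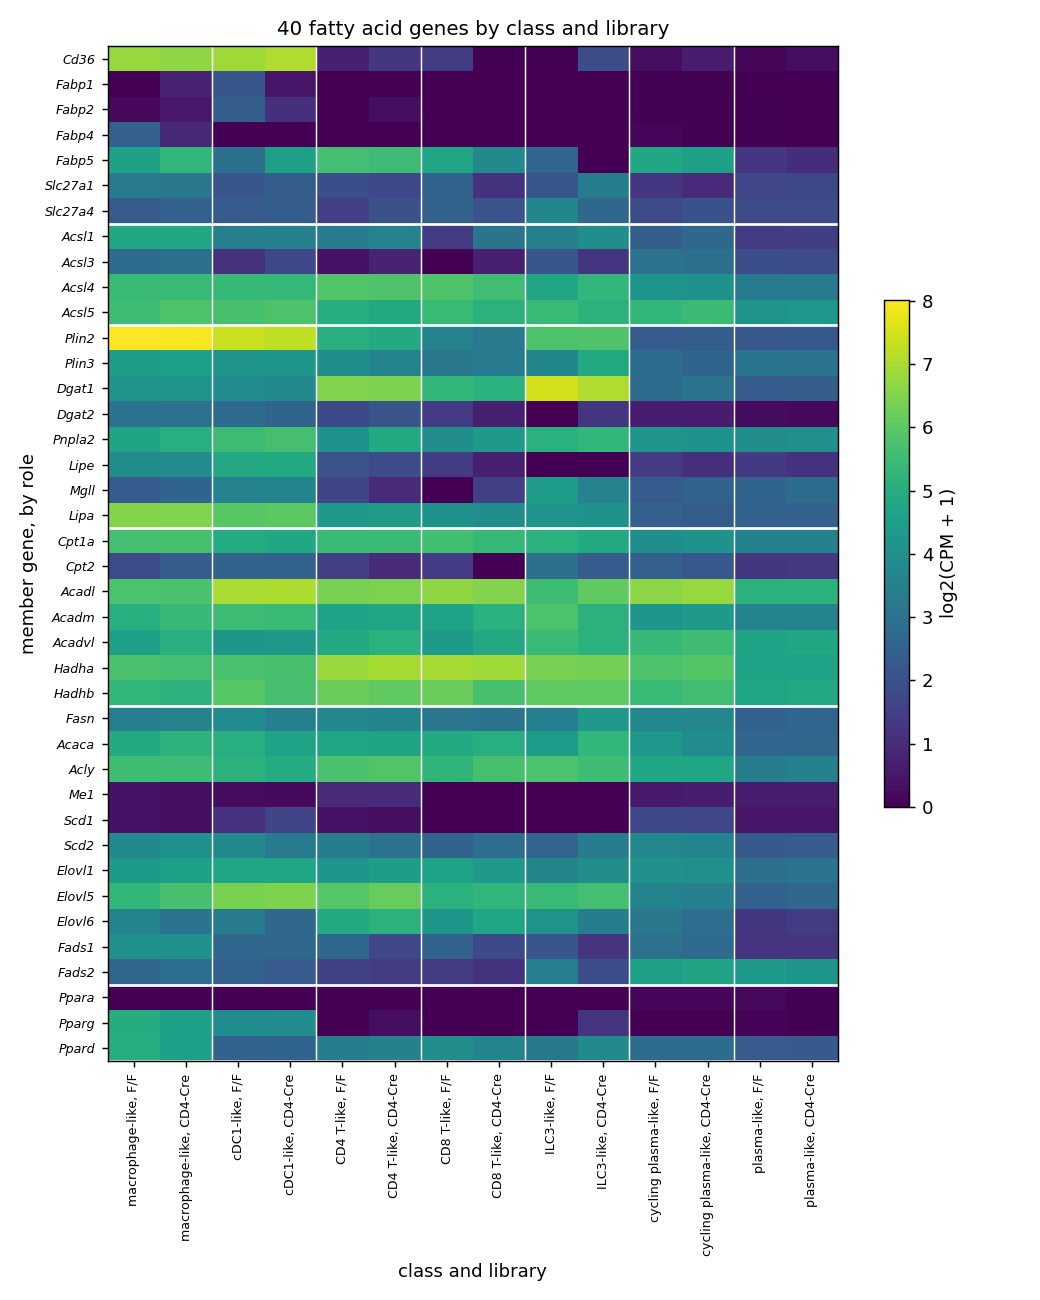
Level of each of the 40 members, as log2(CPM + 1) by colour, in 7 classes (columns, F/F then CD4-Cre within each class), with white horizontal lines between role groups in the order of the text. Cd36 and Pparg are bright in macrophage-like and cDC1-like columns and near 0 elsewhere, and the 2 columns of a class look alike for most members.

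Among the binding and uptake genes, Cd36, a scavenger receptor that takes up long-chain fatty acids, was concentrated in 2 myeloid classes. Levels in cDC1-like cells were 117 CPM (109 to 126) for F/F and 133 CPM (125 to 142) for CD4-Cre, and those in macrophage-like cells 108 (99.8 to 116) and 100 (91.2 to 110). The CD4 T-like class had 0.63 and 1.39 CPM, and the plasma-like class 0.11 and 0.234. The intervals of the 2 myeloid classes overlapped in F/F and did not in CD4-Cre, and the order of the pair in F/F turned (127 CPM in cDC1-like, 131 in macrophage-like cells) when immunoglobulin, pancreatic and gastric genes were left out of the totals. At least 1 Cd36 UMI was found in 73.5% and 75.6% of cDC1-like cells (median depth 16300 and 15100 UMIs) and in 33.7% and 29.7% of macrophage-like cells (6130 and 6150 UMIs), against 0.2% and 0.433% of plasma-like cells at 17400 and 17600 UMIs. After each cell was thinned to 1500 UMIs, which left out 2 and 4 cDC1-like and 42 and 36 macrophage-like cells, the shares were 14.8% and 19.2% in cDC1-like cells and 16% and 14.9% in macrophage-like cells, so at equal depth the wide gap between the 2 classes was not seen.

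For 33 of the 40 members RefSeq (GRCm38.p6) start sites were at hand, giving 42 windows of 250 bases upstream, and 6 motifs were searched there on both strands. The CCAAT box (CCAAT) was in 18 of 42 windows (42.9%, against 33.8% of 32851 windows of all genes), the PU.1-type ETS site (GAGGAAG), bound by a myeloid and B cell factor, in 7 (16.7% against 10.6%), and the E-box (CACGTG) in 4 (9.52% against 6.02%). A C/EBP-type site (TTGCNNAA) was in 3 windows (7.14% against 9.56%), a PPAR/RXR direct repeat (a pair of AGGNCA copies separated by a single base) in 2, those of Fabp1 and Elovl1 (4.76% against 0.338%), and an SREBP-type sterol element (TCACNCCAC) in 1, that of Acsl1 (2.38% against 1.05%). A match describes letters in the window and no binding was measured. The stretch before the Cd36 start (chr5:17835897-17836146, minus strand, written 5′ to 3′ in the direction of the gene) is shown because Cd36 was near 0 in the other 5 classes, and it held 1 CCAAT box. Capitals here and below mark a match to any of the 6 motifs:
Cd36: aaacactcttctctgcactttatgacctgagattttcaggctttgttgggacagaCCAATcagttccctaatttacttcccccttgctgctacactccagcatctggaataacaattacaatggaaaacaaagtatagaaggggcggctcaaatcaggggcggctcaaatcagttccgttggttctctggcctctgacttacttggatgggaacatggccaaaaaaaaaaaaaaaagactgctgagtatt

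Fabp5, a cytosolic fatty acid carrier, had another distribution. CD4 T-like cells had 47.9 CPM (40.6 to 56.1) for F/F and 44.4 (38.3 to 51.1) for CD4-Cre, the highest of the 7 classes. Macrophage-like cells were next in CD4-Cre at 38.8 CPM, with an overlapping interval. With immunoglobulin, pancreatic and gastric genes left out of the totals, these 2 classes had 46.4 and 46.1 CPM in CD4-Cre. The leading class differed between the libraries under the 10% immunoglobulin limit and without the 5% of cells with most UMIs. Fabp5 was found in cycling plasma-like cells at 26.2 (24.6 to 27.9) and 22.4 (20.6 to 24.2), and in plasma-like cells at 1.41 and 1.09. Cycling plasma-like cells therefore stood above plasma-like cells in both libraries, with intervals far apart. Free RNA in barcodes of 150 to 350 UMIs had 31.1 and 15.9 CPM of Fabp5, above the cycling plasma-like and macrophage-like levels in F/F and below them in CD4-Cre. Among all populations of at least 50 cells in both libraries its highest level, 114 CPM (97.9 to 131) and 99.1 (87 to 112), was in an unnamed cluster of 76 and 110 cells. That cluster was led by the T cell gene Cd5 and histone genes of dividing cells. Within the CD4 T-like class it was higher in the cluster led by Foxp3, the regulatory T cell factor (61.5 and 59.8 CPM), than in the other cluster (33.6 and 28.8 CPM).

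The remaining uptake genes were low. Fabp1 and Fabp2, the enterocyte carriers, had 26 and 10 and 33 and 21 UMIs over all cells of F/F and CD4-Cre. Fabp4, the carrier of adipocytes and some macrophages, had 38 and 6 UMIs, and its 28 and 4 UMIs in macrophage-like cells each came from 5 cells or fewer. Slc27a1 and Slc27a4, fatty acid transport proteins, stayed at or below 9.38 and 11.8 CPM in each of the 7 classes.

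Of the 4 long-chain acyl-CoA synthetases, which activate fatty acids, Acsl1 separated the classes most clearly. Macrophage-like cells had 26.5 CPM (22.6 to 30.9) in F/F and 26.7 (22.1 to 32) in CD4-Cre, and the next class, ILC3-like, 10.1 (3.72 to 22.1) and 14.7 (7.36 to 26.4), which overlapped in CD4-Cre. Neutrophil-like cells, at 18 and 40 cells too few for the ranking, had 217 (141 to 321) and 293 (220 to 383) CPM. Acsl4, which prefers arachidonic acid, was highest in CD4 T-like cells at 56.4 (48.4 to 65.3) and 55 (48.2 to 62.4), and the CD8 T-like class, with 55.1 (38.2 to 77.1) and 46.2 (36.3 to 58), overlapped it. Acsl5 lay between 16.7 and 55.4 CPM and Acsl3 between 0 and 7.24 CPM over the 7 classes, with no class leading in both libraries.

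Of the storage genes, Plin2 and Lipa were highest in macrophage-like cells and next in cDC1-like cells. Plin2, the lipid droplet coat protein, stood at 258 CPM (246 to 271) in F/F and 242 (227 to 257) in CD4-Cre in macrophage-like cells, while cDC1-like cells had 160 (150 to 171) and 150 (141 to 158). The ILC3-like class followed with 54 and 54.9 CPM, CD4 T-like cells with 31.5 and 28.6, and plasma-like cells with 3.52 and 3.6. The first 3 classes did not overlap one another in either library. The 40 neutrophil-like cells of CD4-Cre, too few for the ranking, had 265 CPM of Plin2. A Plin2 UMI was found in 70.2% and 68.6% of macrophage-like cells and in 82.4% and 77.7% of the deeper cDC1-like cells, but at 1500 UMIs per cell in 37.6% and 33.6% against 21.3% and 19.2%, in the order of the CPM. In plasma-like cells these shares were 6.09% and 6.38%, and 0.54% and 0.455% after thinning. Splitting the macrophage-like class at a finer clustering left its larger cluster, led by the complement genes C1qa, C1qb and C1qc, at 289 and 295 CPM, while 78 and 88 cells that fell in a cluster led by Ccl22, Ccl17 and Cd209a had 99.4 (80.8 to 121) and 72.9 (57.5 to 91.1).

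Lipa, the lysosomal acid lipase, followed the same order as Plin2 over the first 2 classes, at 92.2 CPM (84.8 to 100) and 90.3 (81.7 to 99.7) in macrophage-like cells and 59.8 (53.7 to 66.4) and 63.3 (57.8 to 69.1) in cDC1-like cells, with plasma-like cells at 4.8 and 4.79. The cytosolic lipases were instead highest in cDC1-like cells. Lipe, hormone-sensitive lipase, had 27.7 CPM (23.6 to 32.3) and 28.2 (24.6 to 32.2) there, against 14.5 (11.6 to 17.8) and 13.7 (10.4 to 17.6) in macrophage-like cells. Pnpla2, the adipose triglyceride lipase that starts droplet lipolysis, had 44.1 (38.9 to 49.9) and 49.4 (44.6 to 54.6), overlapping the 33.8 (20.6 to 52.2) and 38.8 (26 to 55.8) of ILC3-like cells. The upstream stretches of Plin2 (chr4:86670060-86670309, minus strand) and Lipa (chr19:34527475-34527724, minus strand) are shown because these genes shared the macrophage-like lead, and that of Pnpla2 (chr7:141454938-141455187, plus strand) because it differed most between the libraries in CD4 T-like cells:
Plin2: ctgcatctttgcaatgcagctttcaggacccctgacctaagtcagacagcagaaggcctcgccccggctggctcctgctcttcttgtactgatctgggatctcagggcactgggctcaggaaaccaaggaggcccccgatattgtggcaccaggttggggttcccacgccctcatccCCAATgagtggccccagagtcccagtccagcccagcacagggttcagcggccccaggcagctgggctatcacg
Lipa: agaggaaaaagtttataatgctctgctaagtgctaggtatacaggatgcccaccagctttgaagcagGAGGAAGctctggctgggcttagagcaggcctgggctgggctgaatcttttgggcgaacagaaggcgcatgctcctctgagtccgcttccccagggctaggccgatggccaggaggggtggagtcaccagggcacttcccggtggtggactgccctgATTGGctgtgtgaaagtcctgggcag
Pnpla2: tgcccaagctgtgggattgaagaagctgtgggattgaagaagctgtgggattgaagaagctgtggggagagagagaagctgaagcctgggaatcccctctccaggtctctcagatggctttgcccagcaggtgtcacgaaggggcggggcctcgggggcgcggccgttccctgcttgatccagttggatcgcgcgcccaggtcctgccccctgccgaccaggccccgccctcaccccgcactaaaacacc
Plin2 and Lipa each held a CCAAT box and Lipa a PU.1-type site, and Pnpla2 held no match.

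Dgat1, which makes triglyceride in the last esterification step, was highest in ILC3-like and CD4 T-like cells among the 7 classes. ILC3-like cells had 177 CPM (145 to 215) in F/F and 134 (109 to 163) in CD4-Cre and CD4 T-like cells 88.5 (78.5 to 99.5) and 87.6 (79 to 96.8), against 16.9 and 16.7 in macrophage-like and 4.03 and 4.12 in plasma-like cells. In the ILC3-like cluster 30.6% of cells had a UMI of Trdc, the gamma-delta T cell receptor gene, and 29.8% one of Cd3e, and the part of such cells in the Dgat1 level was not tested. Its counterpart Dgat2 was highest in macrophage-like cells at 7.23 and 7.07 CPM, with cDC1-like cells at 5.94 and 5.01 and CD4 T-like cells at 2.52 and 3.23; its 76 UMIs there are few. Plin3 was between 4.96 and 28.1 CPM and Mgll, monoglyceride lipase, between 0 and 20.3 CPM, with no class leading in both libraries.

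**Figure D2:**
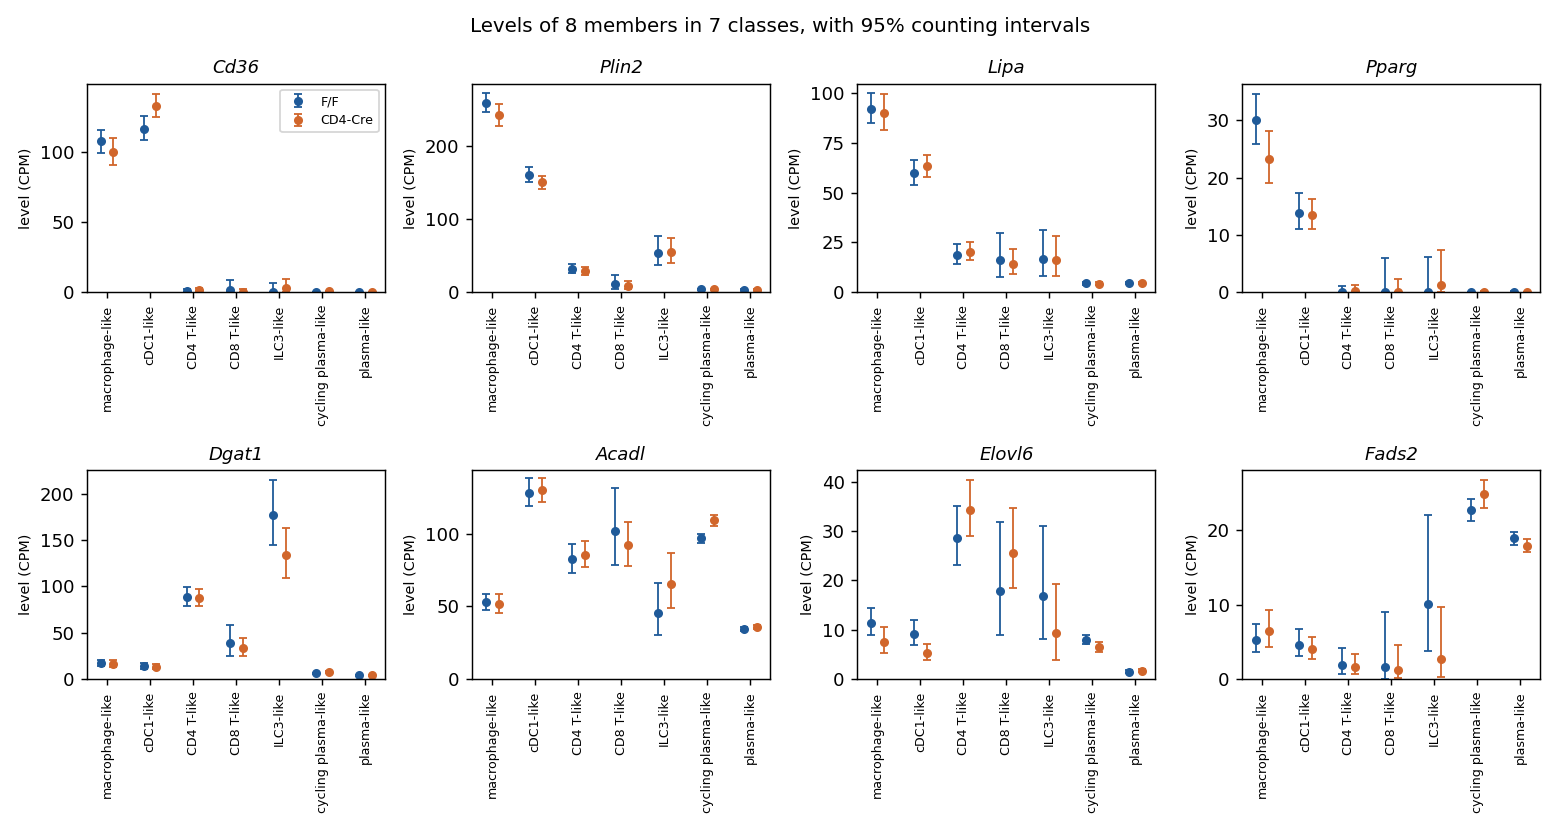
Level in CPM (linear axes from 0) of 8 members in 7 classes, with exact 95% Poisson intervals as bars, F/F in blue and CD4-Cre in orange. Cd36, Plin2, Lipa and Pparg are high in macrophage-like and cDC1-like cells, Dgat1 is highest in ILC3-like cells at 177 and 134 CPM, and Fads2 is highest in the 2 plasma cell classes.

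The oxidation genes were spread over all classes. Cpt1a, the carnitine transferase that gates entry into mitochondria, was at 48.5 CPM (43.2 to 54.3) and 50 (43.6 to 57) in macrophage-like cells, and its intervals overlapped those of the T cell classes. CD8 T-like cells had 47 (31.5 to 67.5) and 40.6 (31.3 to 51.7), and CD4 T-like cells 42.2 (35.4 to 50) and 43.4 (37.4 to 50.1). The 40 and 61 ILC2-like cells (group 2 innate lymphoid cells), too few for the ranking, had 59 and 50.8 CPM of Cpt1a. Acadl, the long-chain acyl-CoA dehydrogenase, led among the 7 classes in cDC1-like cells at 128 (119 to 138) and 130 (122 to 138). Next came CD8 T-like cells in F/F at 102 (78.5 to 131) and cycling plasma-like cells in CD4-Cre at 109 (105 to 113), with the macrophage-like class at 52.7 and 51.6. Acadl was higher, at 141 and 153 CPM, in an unnamed cluster led by Gzma and Cd8a (233 and 300 cells). Leaving immunoglobulin, pancreatic and gastric genes out of the totals put cycling plasma-like cells above cDC1-like cells in CD4-Cre (154 against 143 CPM) and not in F/F (132 against 139 CPM).

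Hadha and Hadhb are the 2 subunits of the mitochondrial trifunctional protein, which carries out the last steps of long-chain β-oxidation. Both were high in the 2 T cell classes, and in CD4-Cre the ILC3-like class, at 64.3 CPM of Hadhb, was above the CD8 T-like class. Hadha stood at 111 and 123 CPM in CD4 T-like and 122 and 117 in CD8 T-like cells, against 51.4 and 48.4 in macrophage-like and 23.7 and 23.6 in plasma-like cells. Hadhb stood at 71.2 and 65.6 CPM in CD4 T-like and 71.4 and 50.6 in CD8 T-like cells, against 38.4 and 35.6 in macrophage-like and 25.3 and 27.5 in plasma-like cells. Both T cell classes were above the macrophage-like class for both genes, with intervals apart except for Hadhb in CD8 T-like cells of CD4-Cre (40.2 to 62.9 against 30.2 to 41.6). With immunoglobulin, pancreatic and gastric genes out of the totals, plasma-like Hadhb was 56.4 and 63.7 CPM, above the 46.5 and 42.3 of macrophage-like cells and, in CD4-Cre, above the 52.3 of the CD8 T-like class. On that scale cDC1-like Hadhb, at 64.7 and 54.4 CPM, was also above the CD8 T-like class in CD4-Cre. The ILC3-like class was then the highest of the 7 for Hadhb, at 78.7 and 81.4 CPM, and had 99.4 and 102 CPM of Hadha. Their start sites face away from each other with 272 bases between them (chr5:30154981-30155252), written here on the plus strand from Hadha to Hadhb. The stretch is shown because both genes have their starts at its ends, and it held none of the 6 motifs:
Hadha-Hadhb: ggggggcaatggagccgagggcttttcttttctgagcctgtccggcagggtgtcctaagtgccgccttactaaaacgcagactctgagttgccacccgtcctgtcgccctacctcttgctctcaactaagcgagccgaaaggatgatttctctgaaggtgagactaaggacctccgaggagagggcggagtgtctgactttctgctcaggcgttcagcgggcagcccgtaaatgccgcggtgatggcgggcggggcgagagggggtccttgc
The other oxidation genes were Acadm (11 to 52.4 CPM), Acadvl (18 to 45 CPM) and Cpt2 (0 to 6.75 CPM over the 7 classes), and none had the same leading class in both libraries.

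Of the synthesis genes, Fads2, the delta-6 desaturase, was highest in the 2 plasma cell classes. It stood at 22.7 CPM (21.2 to 24.2) in F/F and 24.8 (23 to 26.7) in CD4-Cre in cycling plasma-like cells and at 18.9 (18 to 19.8) and 17.9 (17 to 18.8) in plasma-like cells, against 1.89 and 1.62 in CD4 T-like cells. Free RNA in barcodes of 150 to 350 UMIs had 17.3 and 16.4 CPM of Fads2, close to the plasma-like level. With immunoglobulin, pancreatic and gastric genes left out of the totals the order of the 2 plasma cell classes turned, to 42.3 and 41.4 CPM in plasma-like and 31 and 35.1 in cycling plasma-like cells. Fads1, the delta-5 desaturase, was highest in macrophage-like cells at 15.1 (12.2 to 18.5) and 15.3 (11.8 to 19.4), ahead of cycling plasma-like cells at 6.95 (6.14 to 7.85) and 5.91 (5.03 to 6.89). Scd1, a stearoyl-CoA desaturase, was led by cycling plasma-like cells at 2.37 (1.91 to 2.91) and 2.26 (1.73 to 2.9), overlapping cDC1-like cells at 1.19 (0.478 to 2.45) and 2.18 (1.27 to 3.49). The smaller B-like cluster (77 and 167 cells) had 28.9 (19.1 to 42.1) and 26 (20.7 to 32.2) CPM of Scd1. The stretch upstream of Fads2 (chr19:10101504-10101753, minus strand) is shown for its plasma cell pattern and held 1 PU.1-type site:
Fads2: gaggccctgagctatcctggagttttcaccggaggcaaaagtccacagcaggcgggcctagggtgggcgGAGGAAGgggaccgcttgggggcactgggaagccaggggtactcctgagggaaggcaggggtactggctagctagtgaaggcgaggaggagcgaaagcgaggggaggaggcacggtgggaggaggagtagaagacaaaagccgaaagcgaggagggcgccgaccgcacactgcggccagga

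Of the elongases, Elovl5 was highest among the 7 classes in cDC1-like cells at 83.2 CPM (76 to 90.9) and 88.3 (81.9 to 95.2), ahead of CD4 T-like cells at 58.9 (50.8 to 68) and 70.7 (63 to 79.1). The 40 and 61 ILC2-like cells had 98.3 and 97.4 CPM of Elovl5. Elovl6, which lengthens palmitate, led in CD4 T-like cells at 28.7 (23.1 to 35.2) and 34.4 (29.1 to 40.4), overlapping the CD8 T-like class with 17.8 (8.91 to 31.9) and 25.6 (18.4 to 34.7). It was higher in an unnamed cluster led by Gzma and Cd8a, at 58.8 (46.8 to 72.9) and 59.3 (47.9 to 72.4). Barcodes of 10 to 100 UMIs had 47.1 and 35 CPM of Elovl6, above the CD4 T-like values, while those of 150 to 350 UMIs had 3.82 and 4.78. Elovl1, an elongase of very long chains, was at 25 CPM (21.1 to 29.3) and 25 (21.6 to 28.8) in cDC1-like cells, within the intervals of CD8 T-like cells at 24.3 (13.6 to 40.1) in F/F and macrophage-like cells at 22.8 (18.6 to 27.7) in CD4-Cre. Acly, Acaca and Fasn, which turn citrate into palmitate, ranged from 9.61 to 56.4, from 5.12 to 38.8 and from 4.56 to 18.8 CPM over the 7 classes, with plasma-like cells lowest for each in both libraries. With immunoglobulin, pancreatic and gastric genes out of the totals this no longer held for Fasn, at 10.2 and 11.8 CPM in plasma-like and 8.4 and 7.75 in CD8 T-like cells. Scd2 lay between 3.8 and 15.3 CPM, and Me1, malic enzyme, had 118 and 143 UMIs over all cells.

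The 3 PPAR receptors had separate patterns. Pparg was at 30 CPM (25.9 to 34.7) in F/F and 23.3 (19 to 28.2) in CD4-Cre in macrophage-like cells and at 13.9 (11.1 to 17.3) and 13.5 (11 to 16.3) in cDC1-like cells, and at or below 1.34 CPM in the other 5 classes. The 40 and 61 ILC2-like cells, group 2 innate lymphoid cells, had 85.2 (45.4 to 146) and 33.9 (14.6 to 66.7) CPM from 13 and 8 UMIs. Ppard, the broadly used receptor, was at 30.8 (26.6 to 35.5) and 21.9 (17.7 to 26.7) in macrophage-like cells, with CD8 T-like cells next in F/F at 14.6 (6.67 to 27.7) and ILC3-like cells next in CD4-Cre at 13.4 (6.42 to 24.6). The few neutrophil-like cells had 17.4 (2.11 to 62.8) and 33.2 (12.2 to 72.2) CPM of Ppard from 2 and 6 UMIs. Ppara had 17 and 12 UMIs over all cells.

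The design sets the 2 pools side by side within each class, beginning with the CD4 T-like class, as the CD4-Cre driver acts in T cells. Ratios are CPM in CD4-Cre over F/F within a class, with the exact 95% interval from the split of the UMIs, for members with at least 100 UMIs over both libraries; a member is counted when its ratio is at least 1.5 or at most 1 over 1.5. The CD4 T-like class had 18 such members. One, Pnpla2, was at least 1.5-fold higher and 0 were lower, where 1.76% of the 6758 genes measured in the class were higher and 1.02% lower. The members' median log2 ratio was 0.05, beside 0.07 for all genes measured.

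Pnpla2 was at 16.4 CPM (12.2 to 21.5) in F/F, from 52 UMIs, and at 29.1 CPM (24.2 to 34.7) in CD4-Cre, from 126 UMIs, a ratio of 1.78 (1.28 to 2.5). A UMI of it was found in 6.39% and 9.38% of CD4 T-like cells, and in 2.27% and 5.21% at 1500 UMIs per cell, which left out 34 and 30 cells; plasma-like cells had 2.28% and 2.47% at that depth. The ratio was 1.86 (1.3 to 2.68) without the 5 cells with most Pnpla2 UMIs in each library, 2.33 (1.41 to 4) in the cluster outside the Foxp3-led one and 1.4 (0.889 to 2.24) in the Foxp3-led cluster. With coarser clusters (Leiden resolution 0.5) the CD4 T-like name held only for a cluster of 431 and 603 cells led by Nckap5 and Foxp3. An unnamed cluster of 537 and 988 cells had Cd4 in 56.6% and Cd8b1 in 27.1% of its cells. In the named cluster the ratio was 1.46 (0.953 to 2.27), under the 1.5-fold limit, so this value does not cover the whole CD4 T-like class. Pancreatic marker RNA in these cells stood at 825 and 45.7 CPM, and its part in the ratio was not tested. Without immunoglobulin, pancreatic and gastric genes in the totals, Pnpla2 was 17.2 and 30.4 CPM in CD4 T-like and 29.8 and 37.7 in macrophage-like cells. It was also higher in CD4-Cre in CD8 T-like (15.1 and 20), ILC3-like (41.4 and 49.2) and cDC1-like cells (47.9 and 54.3). Plasma-like cells had 32.5 and 35.5, and cycling plasma-like cells 22.7 and 22.8. The difference, given here without intervals, was largest in CD4 T-like cells but not confined to them.

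The other 17 members in CD4 T-like cells had ratios from 0.909 to 1.23, each with an interval that held 1. For Plin2 it was 0.909 (0.693 to 1.2), for Acsl5 0.911 (0.693 to 1.2), for Fabp5 0.926 (0.745 to 1.15) and for Acsl4 0.975 (0.8 to 1.19). Dgat1 had 0.989 (0.845 to 1.16) and Lipa 1.08 (0.766 to 1.52). A doubling and a halving lay outside each of these 6 intervals, which cover counting error alone and not the spread between mice. Among the oxidation genes Hadhb had 0.921 (0.771 to 1.1), Cpt1a 1.03 (0.82 to 1.29), Acadl 1.04 (0.885 to 1.22), Acadm 1.04 (0.768 to 1.41), Hadha 1.1 (0.962 to 1.27) and Acadvl 1.18 (0.902 to 1.55). Of the synthesis genes Acaca had 0.972 (0.72 to 1.32), Acly 1.08 (0.886 to 1.33), Elovl5 1.2 (0.997 to 1.45), Elovl6 1.2 (0.919 to 1.58) and Elovl1 1.23 (0.875 to 1.75).

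**Figure D3:**
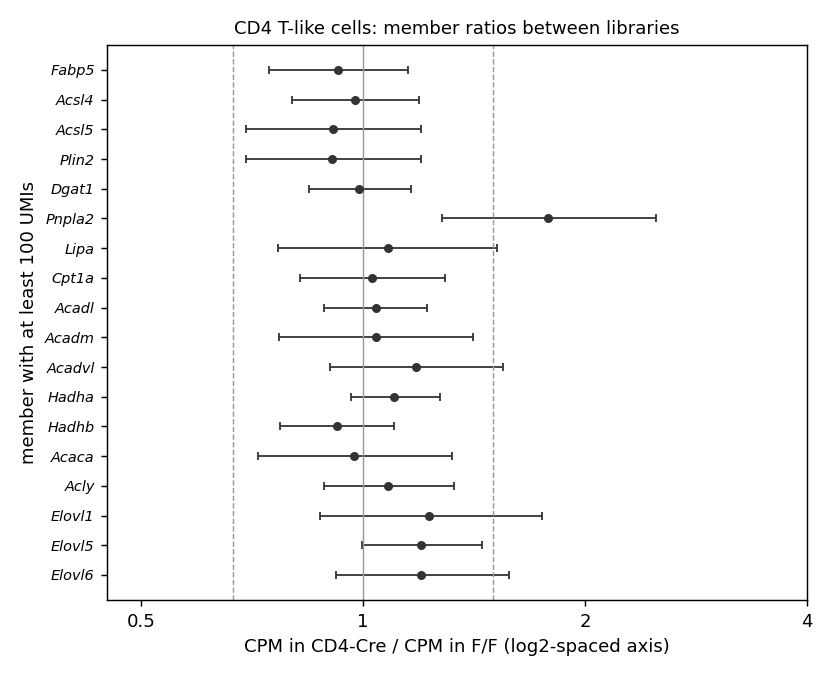
Ratio of CPM in CD4-Cre to F/F for the 18 members with at least 100 UMIs in CD4 T-like cells, on a log2-spaced axis, with exact 95% intervals; the solid line is a ratio of 1 and the dashed lines are 1.5-fold in either direction. Pnpla2 at 1.78 is the only point beyond a dashed line.

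In cDC1-like cells 25 members were measured; 1, Fabp5, was past 1.5-fold higher and 0 were lower, where 1.32% and 1.82% of 7700 genes were, and the median was 0.00. Fabp5 went from 6.79 CPM (4.85 to 9.25) in F/F to 22.6 (19.4 to 26.2) in CD4-Cre, a ratio of 3.33 (2.35 to 4.82), but the share of cells with a UMI was 6.47% and 7.02%. The 5 cells with most UMIs held 21 of the 40 UMIs in F/F and 133 of the 176 in CD4-Cre, and the ratio without them was 1.71 (0.976 to 3.11). A finer clustering (Leiden resolution 2) placed 13 F/F and 40 CD4-Cre cells of the class in a migratory DC-like cluster, which held 19 and 144 of the Fabp5 UMIs. The cells that stayed cDC1-like had a ratio of 1.22 (0.684 to 2.23). Scd2 lay just inside the lower limit at 0.669 (0.477 to 0.937).

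In macrophage-like cells 27 members were measured, 1 higher and 1 lower, where 2.26% and 3.13% of 7803 genes were, with a median of 0.01. Fabp5 went from 23.1 CPM (19.5 to 27.2) to 38.8 (33.2 to 45.1), a ratio of 1.68 (1.33 to 2.11), and of 1.71 (1.29 to 2.27) without the 5 cells with most UMIs in each library. Elovl6 went from 11.4 CPM to 7.53, from 71 and 33 UMIs, a ratio of 0.66 (0.423 to 1.01) whose interval held 1. It was inside the limit at 0.801 with finer clusters (Leiden resolution 2), at 0.791 with pancreatic, gastric and enterocyte genes kept in the clustering and at 0.784 without the 5% of cells with most UMIs. Pparg, at 0.775 (0.602 to 0.991), and Ppard, at 0.71 (0.55 to 0.912), did not pass the limit. Plin2 at 0.935 (0.865 to 1.01), Lipa at 0.98 (0.86 to 1.12) and Cd36 at 0.931 (0.824 to 1.05) had intervals that held 1.

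No member of the 31 measured in plasma-like cells passed 1.5-fold (background 1.06% higher and 2.21% lower), nor of the 30 in cycling plasma-like cells (0.846% and 2.41%), the 5 in CD8 T-like cells (8.23% and 2.23%) or the 2 in ILC3-like cells (1.92% and 3.79%). Dgat1 in ILC3-like cells had a ratio of 0.755 (0.569 to 1) and Hadhb in CD8 T-like cells 0.709 (0.485 to 1.05). Among unnamed clusters of at least 100 cells, Pnpla2 was at 26.4 and 42.1 CPM in a cluster led by Klra genes, a ratio of 1.59 (1.11 to 2.32; background 2.41% higher and 1.66% lower). Acadm was at 20.7 and 31.7 CPM in a cluster led by Cd40lg and Il4, a ratio of 1.53 (1 to 2.4; background 1.69% higher and 1.53% lower). Lipe was at 3.48 and 2.04 CPM in a cluster led by Pls1 and Il5ra, 0.587 (0.398 to 0.857; background 0.893% higher and 3.05% lower). That cluster of 1700 and 1408 cells had a median of 47.5% immunoglobulin UMIs and lies outside the plasma-like class. Plin2 was at 9.86 and 5.92 CPM in a cluster led by plasma cell genes in which 61.2% of cells also had a Cd3e UMI, 0.6 (0.419 to 0.856; background 1.49% higher and 2.42% lower). None of the 10 members measured in the cluster led by Gzma and Cd8a passed it (4.26% and 2.44%).

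**Figure D4:**
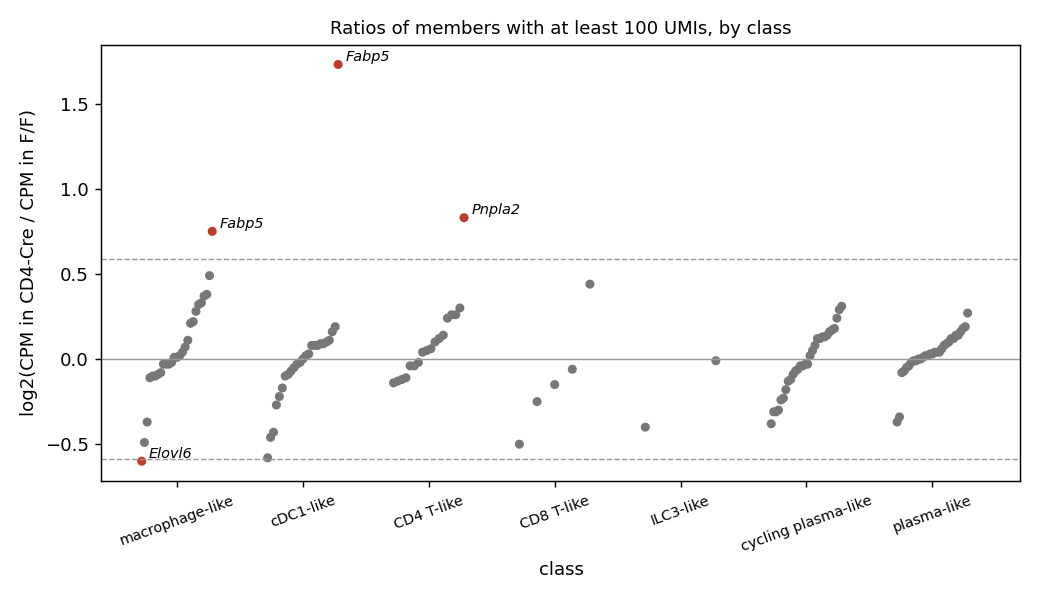
log2 ratio of CPM in CD4-Cre to F/F for each member with at least 100 UMIs in a class, sorted within the class, with dashed lines at 1.5-fold; points past a line are red and named. The 4 named points are Fabp5 in macrophage-like and cDC1-like cells, Pnpla2 in CD4 T-like cells and Elovl6 in macrophage-like cells.

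A list of 107 further fatty acid genes gave a wider view, and 68 of them had at least 100 UMIs over the 7 classes. Macrophage-like cells led for 8 of these (11.8%, against 11.6% of all genes with as many UMIs), cDC1-like cells for 8 (11.8% against 9.34%) and cycling plasma-like cells for 8 (11.8% against 11.4%). The ILC3-like class led for 9 (13.2% against 8.31%), the CD8 T-like class for 7 (10.3% against 8.59%), the CD4 T-like class for 3 (4.41% against 10.4%) and the plasma-like class for 0 (background 1.81%), and for 25 the class differed between the libraries. The macrophage-like share was thus close to that of all genes. Of the binding and uptake genes, Dbi, an acyl-CoA binding protein, was highest in cycling plasma-like cells at 233 and 196 CPM. Ffar2, a short-chain fatty acid receptor, had 135 and 110 CPM in ILC3-like cells and 6.45 and 11.9 CPM in the next class. Acbd3, a Golgi acyl-CoA binding protein, had different leading classes at 57.4 and 58.4 CPM. Lpl, the lipase that frees fatty acids from lipoproteins, had 38.1 and 28.1 CPM in macrophage-like cells and 0.315 and 0.231 in the next class, and Ffar4, a long-chain fatty acid receptor, 38.7 and 34.2 CPM in cDC1-like cells against 0.321 and 2.05; the pair was named after its values were seen. Among the activation genes Acot7, a thioesterase, reached 92.9 and 65.6 CPM in ILC3-like cells, Acot9 41.3 and 45.5 CPM and Acot13 40.5 and 45 CPM.

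Among the further storage genes, Soat1, which esterifies cholesterol, led in macrophage-like cells at 110 and 105 CPM, Lpin2 there at 59.6 and 56.6 CPM, and Bscl2, seipin, reached 53.5 and 40 CPM. Among the oxidation genes Ucp2 had 608 and 628 CPM in cDC1-like cells, Etfb 176 and 186 CPM in cycling plasma-like cells, and Slc25a20, the carnitine carrier, 123 and 115 CPM in cDC1-like cells against 24.6 and 27.1 in the next class. Hacd3, a dehydratase of the elongation cycle, led in CD4 T-like cells at 124 and 149 CPM, Tecr, its reductase, in cycling plasma-like cells at 128 and 144 CPM, and Me2 in CD8 T-like cells at 66.5 and 68.7 CPM. The control gene Ncor1, a corepressor, had 554 and 504 CPM in ILC3-like cells, Ncoa1 131 and 134 CPM, and Insig1 62.5 and 57 CPM in macrophage-like cells. Between the pools 39 of the list were measured in CD4 T-like cells and 1, Hsd17b12, the elongation cycle ketoreductase, was past 1.5-fold, at 18.6 and 30.3 CPM and a ratio of 1.63 (1.19 to 2.25), beside a background of 1.76% higher. Dbi, at 193 and 124 CPM with a ratio of 0.641 (0.508 to 0.811), was the 1 of 12 past the limit in the CD8 T-like class (background 2.23% lower). Tecr, at 86.1 and 130 CPM with 1.51 (1.06 to 2.16), was the 1 of 8 past it in the ILC3-like class (background 1.92% higher). In macrophage-like cells 48 were measured and 2 passed: Eci2 with a ratio of 1.72 (1.35 to 2.21) and Acss1 with 0.578 (0.419 to 0.787), beside 2.26% of all genes higher and 3.13% lower. None of 46 passed in cDC1-like cells (background 1.32% higher and 1.82% lower), and 0 of 63 in plasma-like cells (1.06% and 2.21%). In cycling plasma-like cells 4 of 60 passed, all lower, where 2.41% of all genes were lower: Hilpda at 0.496 (0.354 to 0.686), Ppargc1b at 0.539 (0.382 to 0.75), Oxsm at 0.663 (0.456 to 0.952) and Mcat at 0.667 (0.537 to 0.825).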

How the data were processed

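The deposited files hold raw UMI counts per gene and barcode, including empty droplets, for 1 pooled library per genotype. Per the submitters' processing notes they came from Cell Ranger 7.2.0 with builds mm10 and GRCm38, and Seurat 5.0.1 is named; how each was used is not given in the sources used here. Cells were barcodes holding 1000 or more UMIs from 500 or more genes, of which no more than 10% were mitochondrial. Both libraries were clustered together with scanpy 1.11.5 and leidenalg 0.10.2 (2000 variable genes, 30 components, 15 neighbours, resolution 1). The members, the 107 further fatty acid genes, Gramd1a and the immunoglobulin, T cell receptor, mitochondrial, ribosomal protein, pancreatic, gastric and enterocyte genes were left out of the variable genes.

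A cluster was named "-like" when at least 3 of a class's markers were each found in at least 20% of its cells and that class had most markers among the top 10 genes by fold; plasma-like clusters needed 80% of their markers and a median of 20% immunoglobulin UMIs. A plasma-like cluster was also named where no class had a marker among its top 10 genes, which holds for 1 of the 2 cycling plasma-like clusters (809 and 585 cells). CD4 and CD8 T-like clusters needed at least 2 leading markers and their receptor and coreceptor genes in at least 50% of cells. Classes other than T cells needed Cd3e in under 50% of cells, which left a cluster led by plasma cell genes unnamed (61.2% with Cd3e). Cycling means Mki67 in at least 50% of cells. These naming limits were settled in several steps after the clusters' leading genes were seen. The names are rebuilt here and are not the authors'. No doublet caller was run; alternatives limit immunoglobulin UMIs and leave out the deepest cells.

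UMIs were summed per class and library and divided by the class total (CPM; class totals ran from 592165 to 90856353 UMIs). Intervals are exact at 95%: Poisson for CPM, Clopper-Pearson for shares of cells and the binomial split for ratios (scipy 1.17.1). Free RNA was read from barcodes of 10 to 100 and 150 to 350 UMIs. Cells are not replicates, and the mice of a pool cannot be told apart, so no test was made. The ratio and its interval were run on simulated Poisson counts per class. These counts held no spread between mice and no uneven sharing of UMIs among cells, so the run cannot check the intervals for either. Members with at least 100 UMIs in their leading class are given there and in the next class; between libraries all measured members in CD4 T-like cells and those past 1.5-fold elsewhere are named, and for the further list up to 3 genes per role with the highest CPM. The members and lists were chosen with earlier results of these data known, and so were the motifs and the sequences shown; the upstream windows, the split of the cDC1-like class and that of the CD4 T-like class were chosen after seeing the data. Alternatives changed depth, mitochondrial limit, resolution, variable genes, scaling, immunoglobulin limit, deepest cells and the UMI minimum. Upstream sequences are RefSeq's (GRCm38.p6); Dgat1, Fabp5, Fads1, Scd1, Dgat2, Fabp4 and Scd2 were not matched.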

Additional observations from a re-analysis of the deposited data

How the results depend on the processing

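No paired analysis was possible because each genotype has 1 library. Of the 36 members measured, 9 kept their highest class under all 8 settings tried (Acsl1, Plin2, Pnpla2, Lipe, Lipa, Elovl5, Fads1, Pparg and Ppard). The class was the same for 22 of 36 at Leiden resolution 2, for 23 with at most 10% immunoglobulin UMIs outside plasma cell clusters, for 22 without the 5% of cells with most UMIs, and for 24 to 30 under the other 5 settings. Under 6 of the 8 settings the ILC3-like class fell below 100 cells or lost its name, so Dgat1 and Slc27a4 had no value there.

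In CD4 T-like cells the count of members past 1.5-fold was 1, and 0 at Leiden resolution 0.5 and with at least 200 UMIs, a minimum that Pnpla2 did not reach. At resolution 0.5 the CD4 T-like name held only for the 431 and 603 cells of a cluster led by Nckap5 and Foxp3. Over the 7 named classes it was 4, and 2 at Leiden resolution 2 (6 classes), 7 with at least 50 UMIs and 2 with at least 200 UMIs. In the main setting 0.846% to 8.23% of all genes measured in these classes were higher and 1.02% to 3.79% lower. Such shares are not given for the other settings, so the counts there have no background beside them. The Fabp5 ratio in cDC1-like cells was 3.33, and 1.22 at Leiden resolution 2.

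The members' median log2 ratio in ILC3-like cells was -0.21, and -0.61 with at most 5% mitochondrial UMIs and -0.40 with at least 200 UMIs, each from 1 gene. In cycling plasma-like cells it was -0.03, and 0.01 at resolution 2, 0.03 with the pancreatic, gastric and enterocyte genes kept in the clustering and 0.02 without immunoglobulin, pancreatic and gastric genes in the totals. In macrophage-like cells it was 0.01, and 0.08 at resolution 2 and -0.05 with the immunoglobulin limit. In plasma-like cells it was 0.03, and 0.08 without immunoglobulin, pancreatic and gastric genes in the totals. At resolution 2 the cycling plasma-like name held for 444 and 337 cells and the macrophage-like name for 676 and 457. Those medians are therefore of smaller classes than in the main setting. The cause of the moves in the medians was not tested. The separate Pnpla2 ratios of the CD4 T-like clusters were added after seeing the data. With 1 pool per genotype, differences between mice are not measured, and in classes of few UMIs a 1.5-fold difference is not detectable.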
